A study of Homo sapiens with 13 samples.

Results

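Artificial enhancers in which CTCF motifs were mixed with FOXO motifs or with MEF2 motifs were compared with arrays of each motif alone. The members were all named constructs whose motif order held CTCF and FOXO and no other motif, or CTCF and MEF2 and no other motif, in any order, copy number and flanking context. Among episomal barcodes with at least 5 plasmid reads, 3891 of 236860 barcodes in 32 of 542 constructs met this rule in the library with 5 bp between neighbouring motifs. In the library with 10 bp spacers 5116 of 210844 barcodes in 30 of 442 constructs met it, and in the genome-integrated 5 bp library 864 of 16189 barcodes in 31 of 530 constructs did. The rule used motif names only and no measured value. All of these constructs entered the analysis, since each had at least 5 barcodes (episomal) or at least 3 (integrated). The designs were CTCF-FOXO, FOXO-CTCF, FOXO-CTCF-FOXO, FOXO-CTCF-FOXO-CTCF and FOXO-CTCF-FOXO-FOXO in 3 flanking contexts, and CTCF-FOXO-CTCF in context 2 of the 5 bp libraries, with the same set for MEF2. In the integrated library MEF2-CTCF-MEF2-MEF2 in context 1 was not analysed here.

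STARR-seq places a candidate enhancer inside the transcript it drives, so that a more active sequence is found more often in the reporter mRNA. CTCF is a zinc finger protein best known for anchoring chromatin loops and for insulating enhancers from promoters. FOXO proteins are forkhead factors restrained by PI3K and AKT signalling, which is active downstream of the B cell receptor, and MEF2 proteins are MADS-box factors with roles in muscle, neurons and B lymphocytes. The motifs are named for these families, and which proteins bound them in the cells was not measured.

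All samples were MEC1 cells, a long-established B cell line derived from chronic lymphocytic leukaemia and labelled as wild type in genotype. In the episomal assay, cells were transfected in duplicate with the 5 bp or the 10 bp plasmid library and harvested after 24 h, giving 2 mRNA libraries for each spacer beside 1 plasmid DNA library. For the integrated assay the cells carried CRE recombinase under blasticidin selection and a landing pad with GFP, and the 5 bp library replaced the GFP cassette. Cells without GFP were sorted at 10 to 12 days and grown for a further 6 to 7 days, after which 3 RNA and 3 genomic DNA extractions were sequenced. Whether these triplicates came from separate cultures is not stated, so their p-values measure only a spread that may be technical.

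Each construct was read through random 12 bp barcodes, and in several members, mostly integrated ones, 1 barcode held most of the mRNA. Below are 4 such barcodes, shown because calls described further on turn on them and are given with and without them. A barcode holds no motif, and no position in it is marked.
FOXO-CTCF-FOXO-FOXO, context 2, integrated: gggcacaaactt
CTCF-MEF2-CTCF, context 2, integrated: ttgtcgcaaaat
MEF2-CTCF-MEF2-CTCF, context 2, 10 bp: tacggtctaatg
CTCF-MEF2, context 1, 5 bp: gctggttcacag

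The episomal libraries held between 3850658 and 4563359 reads, and 16.6% to 18.5% of them, on barcodes that name no construct, were left out. Activity below is the log2 ratio of a construct's share of mRNA reads to its share of plasmid DNA reads, so that 0 means equal shares and negative values mean less mRNA than plasmid DNA. The SD of an activity covers 2 mRNA libraries that share 1 plasmid library and the same barcodes, so the spread among barcodes of a construct is not in it and not in the tests. Many comparisons therefore pass, and counts of members are to be read against the share of all constructs that passed the same test. The constructs without a motif, 1 per context, had activities of -1.25, -1.12 and -1.55 at 5 bp and -0.68, -0.31 and -0.87 at 10 bp. Every deposited barcode had at least 1 read in each library, which puts a floor under weak constructs: 37.8% and 43.7% of the CTCF and FOXO barcodes held a single read in the 2 mRNA libraries at 5 bp, beside 12.0% and 14.2% of homotypic FOXO barcodes. Their median plasmid count was 14 reads against 9, so the activities of the weak arrays are, if anything, too high. Among homotypic CTCF barcodes 45.5% and 47.1% held a single read at 5 bp, also at a median of 14 plasmid reads. At 10 bp the shares were 36.5% and 40.5% for CTCF arrays and 32.2% and 37.5% for CTCF and FOXO members. Of the CTCF and MEF2 barcodes 35.7% and 43.9% held a single read at 5 bp, and 22.9% and 23.4% at 10 bp. The floor thus bears on these members too, and to a different extent at the 2 spacers.

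The homotypic arrays set the scale. CTCF arrays of 2 to 4 motifs had activities from -3.25 to -2.66 at 5 bp, and FOXO arrays of those lengths from -1.13 to -0.56. MEF2 arrays lost activity with length, from -0.93, -0.20 and -0.15 with 2 motifs in contexts 1, 2 and 3 to -2.27, -1.95 and -2.10 with 4. At 10 bp FOXO arrays lay between -1.90 and -0.77 and MEF2 arrays between -2.00 and -0.22. The CTCF arrays lay between -3.64 and -2.75 there, apart from 4 CTCF motifs in context 1 at -1.68, which rested on 12 barcodes and stood at -2.95 without the barcode with most mRNA. Arrays of 4 CTCF motifs in context 3 were not analysed here, so 4-motif members in that context have no CTCF reference.

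Mixing CTCF into FOXO arrays gave activities near those of CTCF alone, whatever the number of FOXO motifs. Both kinds of array are subject to the floor described above, which can hide differences between them. At 5 bp the 16 CTCF and FOXO members lay between -2.93 and -2.07, beside -1.13 to -0.56 for homotypic FOXO arrays of 2 to 4 motifs. The lowest there was FOXO-CTCF-FOXO-CTCF in context 1. At 10 bp the 15 members lay between -3.95 and -2.39, beside -1.90 to -0.77 for those FOXO arrays. How many of all constructs lay below these arrays was not counted. By edgeR's quasi-likelihood test all 15 designs shared by both libraries were lower in mRNA than in plasmid DNA at 5 bp, where 49.5% of all designs were lower, and all 15 were lower at 10 bp, where 48.6% were. Their median log2 ratio was -2.05 at 5 bp and -2.32 at 10 bp, against medians over all designs of -0.14 and -0.12. CTCF-FOXO-CTCF in context 2, present at 5 bp only, had a log2 ratio of -1.60 in the edgeR fit of that library alone.

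The shortest arrays, with 1 motif of each kind, were already low. In context 1 at 5 bp, CTCF-FOXO had activities of -2.77 and -2.74 in the 2 mRNA libraries and FOXO-CTCF of -2.32 and -2.45. The array of 2 FOXO motifs in that context had -0.78 and -0.70, and that of 2 CTCF motifs -2.81 and -2.73. Both mixed arrays lay far from the FOXO level in each library. By the means of both libraries FOXO-CTCF was above the CTCF array by 0.38 (limma adjusted p = 0.0363), and by 0.01 (adjusted p = 0.93) without the leading barcodes. At 10 bp CTCF-FOXO in context 1 had -3.25 and -3.39 and FOXO-CTCF -3.21 and -3.25, below the 2 CTCF motifs at -2.99 and -2.69 and the 2 FOXO motifs at -1.23 and -1.31. Without the leading barcodes their differences from the CTCF array were -0.22 and -0.15, and neither passed (limma adjusted p = 0.177 and 0.294). In contexts 2 and 3 the 2-motif members lay between -2.70 and -2.48 at 5 bp and at 10 bp FOXO-CTCF in context 3 was the highest at -2.48.

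Arrays with a single CTCF motif among 4 lay at similar levels. FOXO-CTCF-FOXO-FOXO in context 2 had activities of -2.43 and -2.55 at 5 bp, beside -0.79 and -0.76 for 4 FOXO motifs. That is a 3.29-fold lower share (log2 difference -1.72, SE 0.09, limma adjusted p = 3.02e-07). In context 3 the same design was 3.78-fold lower, and in context 1 it was 2.79-fold lower. At 10 bp these contrasts were 2.11-fold, 2.20-fold and 2.62-fold in contexts 2, 3 and 1. Against the FOXO array of equal length and context, 16 of 16 members were lower at 5 bp (limma, median log2 difference -1.72) and 15 of 15 at 10 bp (median -1.59). Over all mixed constructs and both their homotypic arrays, 30.2% of such differences were called below and 53.3% above at 5 bp, and 26.6% and 58.7% at 10 bp.

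An expected activity was taken from both homotypic arrays of equal length and context, as the mean of their log2 activities weighted by the copies of each motif. Every CTCF and FOXO member with both references lay below it. At 5 bp 14 of 14 were below by limma, with departures from -1.18 to -0.29 and a median of -0.92, where 30.4% of all mixed constructs were below and 56.7% above. At 10 bp 13 of 13 were below, with departures from -2.41 to -0.62 and a median of -0.99, where 21.4% of all mixed constructs were below and 66% above. The members share a few homotypic references, so these departures are not independent of each other. The largest at 5 bp belonged to FOXO-CTCF-FOXO-FOXO in context 2 (-1.18, SE 0.09, adjusted p = 6.12e-05). The smallest was that of CTCF-FOXO-CTCF in context 2 (-0.29, SE 0.06, adjusted p = 0.00596), whose sign turned to 0.15 (adjusted p = 0.126) with at least 20 plasmid reads per barcode. The largest at 10 bp was that of FOXO-CTCF-FOXO-CTCF in context 1 (-2.41), whose CTCF reference is the array of 12 barcodes named above. Without the barcode with most mRNA in each construct it was -1.86 (adjusted p = 0.000124). This design also held the lowest activity of all members, with -3.83 and -4.07 in the 2 mRNA libraries.

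Against homotypic CTCF arrays the differences ran from -0.03 to 0.66 at 5 bp and from -2.27 to 0.76 at 10 bp. At 5 bp 8 of 14 CTCF and FOXO members were above the CTCF array by limma and the other 6 did not pass, at a median difference of 0.28. Over all mixed constructs 53.3% of such differences were above, so this count is near the background. Without the leading barcode of each construct 5 were above and 1 below. At 10 bp 3 of 13 were above and 7 below, with a median of -0.24, where 58.7% of such differences were above and 26.6% below. Without the leading barcodes 4 were above and 1 below, and the median was -0.05. The 7 below with all barcodes include both members set against the CTCF array of 12 barcodes. The lowest, FOXO-CTCF-FOXO-CTCF in context 1, was at -2.27 and, without the leading barcodes, at -1.10 (adjusted p = 1.81e-05). FOXO-CTCF-FOXO in context 3, which rests on 537 barcodes at 5 bp and 774 at 10 bp, lay 1.57-fold above 3 CTCF motifs at 5 bp (log2 difference 0.65, SE 0.10, adjusted p = 0.000288) and 1.56-fold above them at 10 bp (0.64, SE 0.10, adjusted p = 0.000365). It was the most active member of its pair at 10 bp. FOXO-CTCF-FOXO-CTCF in context 3 was the most active at 5 bp, at -2.05 and -2.09. A single barcode held 25.1% of its mRNA reads. Without the leading barcodes it stood at -2.35, beside -2.36 for FOXO-CTCF-FOXO in context 3.

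CTCF and MEF2 members covered a wider range at 5 bp than those with FOXO. Their activities ran from -3.43 to -1.38 at 5 bp and from -3.75 to -1.28 at 10 bp, overlapping with homotypic MEF2 arrays in both. All 15 shared designs were lower in mRNA than in plasmid DNA by edgeR at each spacer, where 49.5% and 48.6% of all designs were, with medians of -2.01 and -1.43. CTCF-MEF2-CTCF in context 2, present at 5 bp only, had a log2 ratio of -2.17 in the fit of that library alone. Departures from the weighted mean went both ways: at 5 bp 9 of 14 were below and 2 above (median -0.62), where 30.4% of all mixed constructs were below and 56.7% above. At 10 bp 7 of 13 were below and 2 above (median -0.27), where 21.4% were below and 66% above. The lowest activity at 5 bp, -3.43, was that of MEF2-CTCF-MEF2-CTCF in context 2, on 17 barcodes. At 10 bp this member had the largest positive departure, 1.17, which was -0.55 without the leading barcodes. In context 1 the design had the lowest activity (-3.75) and largest negative departure (-1.91) at 10 bp. It held 22 barcodes there against the CTCF array of 12, and departed by -1.33 without the leading barcodes.

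With 1 MEF2 and 1 CTCF motif the members at 5 bp lay mostly near CTCF alone, where the floor can hide differences. CTCF-MEF2 in context 3 had the largest negative departure at 5 bp, with activities of -2.97 and -2.93 beside -0.23 and -0.08 for 2 MEF2 motifs. It was 6.94-fold below that array (log2 difference -2.80, SE 0.09, limma adjusted p = 1.44e-08) and departed from the weighted mean by -1.45. MEF2-CTCF in that context had -2.66 and -2.67 and was 5.71-fold below. In context 2 CTCF-MEF2 had -2.66 and -2.62 and MEF2-CTCF -2.56 and -2.63, which is 5.41-fold and 5.25-fold below 2 MEF2 motifs at -0.29 and -0.12. In context 1 MEF2-CTCF had -2.68 and -2.61, whereas CTCF-MEF2 stood at -1.99 and -1.74. The latter rests on 35 barcodes, 1 of which, printed above, held 51.3% of its mRNA reads, and without the leading barcodes its activity was -2.84 and its departure went from -0.02 (adjusted p = 0.874) to -0.96 (adjusted p = 0.00109).

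At 10 bp the 2-motif MEF2 members were highest in context 3, and differences between contexts were not tested. In context 2 MEF2-CTCF had activities of -3.15 and -3.36 and was 8.18-fold below 2 MEF2 motifs (log2 difference -3.03, SE 0.13, limma adjusted p = 8.49e-08), the largest such gap of any member at either spacer. CTCF-MEF2 in context 2 had -2.32 and -2.36, and in context 1 the values were -2.50 and -2.65 for CTCF-MEF2 and -2.84 and -2.72 for MEF2-CTCF. In context 3 both orders were higher, at -1.89 and -1.98 for CTCF-MEF2 and at -1.92 and -2.09 for MEF2-CTCF. Both context 3 arrays exceeded 2 CTCF motifs there, by 0.86 (SE 0.09) and 0.79 (SE 0.08) on the log2 scale.

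Members with 2 or 3 MEF2 motifs and a single CTCF motif mostly stood above CTCF alone. MEF2-CTCF-MEF2 at 10 bp had activities of -1.52 and -1.59 in context 1, -1.67 and -1.76 in context 2 and -1.27 and -1.29 in context 3, while 3 CTCF motifs lay at -3.05, -3.21 and -3.03 in those contexts. The gaps were 2.83-fold, 2.83-fold and 3.36-fold, and each member rested on at least 177 barcodes. They lay 1.49-fold to 1.71-fold below 3 MEF2 motifs, and these differences also passed by limma. None of the 3 departed from its weighted mean past the threshold at 10 bp, with departures of 0.11, 0.12 and 0.07 (limma adjusted p = 0.274, 0.211 and 0.572). MEF2-CTCF-MEF2 in context 3 was the most active member at 10 bp, and its departure was -0.31 (adjusted p = 0.0283) against the log2 of the linear weighted mean. At 5 bp the design lay lower, at -2.54, -2.22 and -1.95 in the 3 contexts, with departures of -0.26, -0.52 and 0.17, and 1.63-fold, 1.36-fold and 2.02-fold above 3 CTCF motifs. MEF2-CTCF-MEF2-MEF2 lay 2.36-fold and 2.26-fold above 4 CTCF motifs in contexts 1 and 2 at 5 bp and 4.63-fold above them in context 2 at 10 bp. In context 1 at 10 bp it did not differ from the CTCF array of 12 barcodes past the threshold (-0.30, SE 0.26, adjusted p = 0.296), and stood 0.96 above it (adjusted p = 0.00111) without the leading barcodes.

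Among the designs of both pairs, MEF2-CTCF-MEF2-MEF2 was the only one that was called below the homotypic array of its partner in no context and at neither spacer. At 5 bp it had -1.80 and -1.52 in context 1, -1.73 in each library in context 2, and -1.48 and -1.28 in context 3. Arrays of 4 MEF2 motifs had mean activities of -2.27, -1.95 and -2.10 there. The differences of 0.60 (SE 0.15, adjusted p = 0.00467) in context 1 and 0.72 (SE 0.10, adjusted p = 0.000126) in context 3 passed by limma, and that of 0.23 (adjusted p = 0.0673) in context 2 did not. The value in context 1 rests on 17 barcodes against 14 for the MEF2 array. At 10 bp the differences were 0.02, 0.24 and 0.16, and none passed (adjusted p = 0.931, 0.054 and 0.158). The departures above the weighted mean were 0.76 and 0.46 in contexts 1 and 2 at 5 bp and 0.74 (SE 0.11, adjusted p = 0.0014) in context 2 at 10 bp. Context 1 at 10 bp stood at -0.06 and did not pass.

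Against homotypic MEF2 arrays, 11 of 16 members were lower and 2 higher at 5 bp (median -0.97) and at 10 bp 11 of 15 were lower and the other 4 did not pass (median -1.09). Against homotypic CTCF arrays 8 of 14 were higher and 1 lower at 5 bp (median 0.28), and 8 of 13 were higher and 2 lower at 10 bp (median 0.79). Over all mixed constructs and both references 30.2% of differences were below and 53.3% above at 5 bp, and 26.6% and 58.7% at 10 bp, so the counts above CTCF arrays are near the background. Among the other mixtures with CTCF, at 5 bp all 12 constructs with NFKB lay below the weighted mean at a median of -1.87, and of 10 with PU1 3 lay below and 3 above it at a median of -0.06. All 10 with IRF were below at -0.91, 9 of 10 with RUNX3 at -0.67 and all 8 with MYC at -0.66. At 10 bp all 6 with IRF were below at -1.87, 10 of 12 with NFKB were below and 2 above at -0.85, all 6 with RUNX3 were below at -1.06, 5 of 6 with MYC were below at -0.78, and of 6 with PU1 1 was below and 1 above at -0.06. Differences between these pairs were not tested.

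The number of CTCF motifs was compared in 4-motif arrays that differ only in the last motif, a comparison added after the designs were seen. This exchange adds a CTCF motif, removes a partner motif and changes which motif is last, so these cannot be told apart. With CTCF in place of the last MEF2, the array was 2.63-fold, 3.25-fold and 1.85-fold lower in contexts 1, 2 and 3 at 5 bp, and all 3 differences passed by limma (adjusted p = 0.0074, 0.00244 and 0.00043). At 10 bp it was 3.41-fold and 2.39-fold lower in contexts 1 and 3 (adjusted p = 0.00387 and 0.000176) and differed by -0.06 in context 2 (adjusted p = 0.776). Of all such pairs, 80.6% differed in either direction at 5 bp and 77.8% at 10 bp, so that the number of passes is near the background and the size and direction carry the description. The exception in context 2 at 10 bp turned on 1 barcode. MEF2-CTCF-MEF2-CTCF had activities of -1.42 and -1.55 there, and the barcode tacggtctaatg held 74.1% of the mRNA reads of its 27 barcodes, with 79 plasmid reads and 254 and 236 mRNA reads. Without the leading barcodes its activity was -3.31 and the last-motif difference was -1.89 (SE 0.20, adjusted p = 0.000891). All 6 MEF2 comparisons were then lower with CTCF last, by -1.89 to -1.28. Some of these arrays rest on few barcodes: MEF2-CTCF-MEF2-CTCF held 10 and 17 barcodes in contexts 1 and 2 at 5 bp.

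In FOXO arrays the same exchange gave mostly smaller differences, which with all barcodes passed in both directions at 5 bp. At 5 bp CTCF in the last place gave -0.32 (limma adjusted p = 0.25), -0.38 (0.0227) and 0.46 (0.0106) in contexts 1, 2 and 3. At 10 bp the values were -1.15 (0.0127), -0.51 (0.0101) and -0.25 (0.0675). Without the leading barcodes the 5 bp values were -0.51 (0.172), -0.45 (0.00503) and 0.29 (0.0722). The 10 bp values were then -1.05 (0.0281), -0.72 (0.00095) and -0.09 (0.479), so that no positive value passed. Whether the exchange differed between FOXO and MEF2 arrays was not tested.

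Position was compared in mirror pairs, arrays of the same motifs that begin with CTCF or with its partner, and neither order was higher throughout. At 5 bp 5 of 8 pairs differed by limma, where 76.8% of all mirror pairs did, and at 10 bp 2 of 6 differed, where 56.3% did. CTCF-FOXO was 1.29-fold below FOXO-CTCF in context 1 at 5 bp (-0.37, SE 0.09, adjusted p = 0.00891) and 1.23-fold below in context 3 at 10 bp (-0.29, SE 0.06, adjusted p = 0.00652). CTCF-MEF2 was above MEF2-CTCF by 0.78 in context 1 at 5 bp and by 0.91 (SE 0.09, adjusted p = 0.000377) in context 2 at 10 bp, and below it by -0.28 (adjusted p = 0.0084) in context 3 at 5 bp. Without the leading barcodes the context 1 values at 5 bp were -0.11 for FOXO (adjusted p = 0.259) and -0.10 for MEF2 (adjusted p = 0.285), while -0.26 for MEF2 in context 3 at 5 bp and both 10 bp calls still passed. In 3-motif mirrors the array that starts with CTCF also holds 1 CTCF more. CTCF-MEF2-CTCF was 1.61-fold below MEF2-CTCF-MEF2 in context 2 (-0.68, SE 0.06, adjusted p = 0.000356), and CTCF-FOXO-CTCF was 1.19-fold above FOXO-CTCF-FOXO (0.25, SE 0.07, adjusted p = 0.0253), a difference of 0.00 (adjusted p = 0.998) without the leading barcodes.

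Matched arrays that differ only in MEF2 for FOXO, also compared after the designs were seen, were mostly higher with MEF2 at 10 bp. There 12 of 15 were higher with MEF2 and 1 lower by limma (median 0.80), where 88.6% of all such swaps differed in either direction. The number of passes is thus near the background. Homotypic MEF2 arrays of 2 and 3 motifs also lay above FOXO arrays at 10 bp in each context. With 3 motifs MEF2 stood at -0.97, -1.14 and -0.50 and FOXO at -1.90, -1.23 and -1.14. With 4 motifs MEF2 was below FOXO in contexts 1 and 3. These homotypic differences were not tested. At 5 bp 6 of 16 were higher and 3 lower (median -0.05), where 81.8% differed. MEF2-CTCF-MEF2 exceeded FOXO-CTCF-FOXO at 10 bp by 3.49-fold, 3.51-fold and 2.15-fold in contexts 1, 2 and 3, on 177 to 774 barcodes. MEF2-CTCF-MEF2-MEF2 exceeded its FOXO match in all 3 contexts at both spacers, from 1.70-fold in context 2 at 5 bp to 2.74-fold in context 2 at 10 bp. The 4-motif arrays that end in CTCF differed by -0.12, -0.56 and -0.20 at 5 bp, of which -0.56 in context 2 passed (adjusted p = 0.0394). Without the leading barcodes the differences in contexts 2 and 3 were -0.53 and -0.52 and both passed (adjusted p = 0.000994 and 0.000489). The lower value at 10 bp was that of MEF2-CTCF against FOXO-CTCF in context 2 (-0.25, SE 0.10, adjusted p = 0.0477), which was -0.17 (adjusted p = 0.188) without the leading barcodes. In context 1 at 5 bp CTCF-MEF2 exceeded CTCF-FOXO by 0.89, and by 0.00 (adjusted p = 0.97) without the leading barcodes.

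Between the spacers, CTCF and FOXO members that differed were lower at 10 bp, and CTCF and MEF2 members went both ways with all barcodes. In the edgeR contrast of both mRNA to plasmid ratios 9 of 15 CTCF and FOXO designs were lower at 10 bp and the other 6 did not pass (median -0.50). The only positive values, 0.11 and 0.05, belonged to FOXO-CTCF and FOXO-CTCF-FOXO-FOXO in context 3 (adjusted p = 0.382 and 0.722). Of the CTCF and MEF2 designs 8 of 15 were higher and 3 lower (median 0.32). Over all designs 36% were higher and 41.2% lower. Without the leading barcodes the only CTCF and MEF2 design still lower was MEF2-CTCF in context 2 (-0.47, edgeR adjusted p = 0.00691). CTCF-MEF2 in context 1 went from -0.69 to -0.09 and MEF2-CTCF-MEF2-CTCF in context 3 from -0.67 to -0.11 (adjusted p = 0.662 and 0.605). Among higher designs, CTCF-MEF2 in context 2 went from 0.32 to 0.20 (adjusted p = 0.156). The contrast also depends on the scaling. Scaled on the constructs without a motif, which were themselves more active at 10 bp, all 15 CTCF and FOXO designs were lower, and of the CTCF and MEF2 designs 2 were higher and 9 lower. That scaling moved the median over all designs from -0.05 to -0.76. The spacer is also carried by separate plasmid pools with separate barcodes, so spacer and pool cannot be told apart. Homotypic FOXO arrays of 3 and 4 motifs were also lower at 10 bp in every context, and MEF2 arrays of those lengths higher. In context 1, 3 FOXO motifs went from an activity of -0.89 to -1.90 and 3 MEF2 motifs from -1.80 to -0.97. With 2 motifs each kind went both ways.

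Members that gained at 10 bp were led by CTCF-MEF2 in context 3 (1.03, SE 0.13, adjusted p = 1.74e-06) and MEF2-CTCF-MEF2 in context 1 (1.01, SE 0.14, adjusted p = 4.53e-06), aside from MEF2-CTCF-MEF2-CTCF in context 2. The latter stood at 1.97 (SE 0.21, adjusted p = 4.05e-07) with all barcodes and at 0.23 (adjusted p = 0.429) without the leading ones. The first 2 stood at 0.99 and 1.04 without the leading barcodes, and at 0.32 (adjusted p = 0.0427) and 0.30 (adjusted p = 0.0729) under the scaling on arrays that hold no motif. The largest losses were those of FOXO-CTCF-FOXO-CTCF in context 1 (-1.02, SE 0.19, adjusted p = 0.000164) and FOXO-CTCF-FOXO in context 2 (-0.92, SE 0.11, adjusted p = 9.32e-07). They stood at -0.91 and -0.95 without the leading barcodes. The change in departure from the weighted mean, 10 bp minus 5 bp, went both ways in each pair. For FOXO-CTCF-FOXO it was -0.48 in context 2 and 0.34 in context 3 (limma adjusted p = 0.00807 and 0.0123). It was 1.18 for CTCF-MEF2 in context 3 and -0.72 for MEF2-CTCF in context 2 (adjusted p = 0.000255 and 0.00728).

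After integration into the genome few barcodes of either mixture had mRNA. Of the 620 CTCF and FOXO barcodes 9.73% ± 1.37 (SD, n = 3) had mRNA in a given replicate, and of the 244 CTCF and MEF2 barcodes 8.06% ± 2.26 did. Homotypic CTCF barcodes stood at 9.34% ± 3.35, FOXO at 13.3% ± 3.09, MEF2 at 10.3% ± 2.67, constructs without a motif at 9.49% ± 3.08 and all barcodes at 19.6% ± 2.66. These homotypic values pool arrays of every copy number. With 2 to 4 motifs, the lengths of the members, CTCF arrays stood at 9.19% ± 3.75, FOXO at 12.5% ± 3.17 and MEF2 at 10.9% ± 3.91. The values of both mixtures lay within 1 SD of those of homotypic CTCF arrays, homotypic MEF2 arrays and constructs without a motif. Against FOXO arrays of 2 to 4 motifs the CTCF and FOXO value also lay within 1 SD. In none of the 3 replicates did 77.1% of the CTCF and FOXO barcodes and 81.6% of the CTCF and MEF2 barcodes have mRNA. By design, FOXO-CTCF-FOXO-FOXO and MEF2-CTCF-MEF2-MEF2 had the highest shares, at 15.7% ± 1.60 of 36 barcodes and 16.7% ± 5.77 of 10, and FOXO-CTCF and CTCF-MEF2 the lowest, at 6.54% ± 1.62 of 107 and 4.35% ± 1.45 of 69. These shares of small numbers were not tested.

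Summed over barcodes, 11 of 16 CTCF and FOXO members had less mRNA than genomic DNA by limma on log2(RPM + 0.5) and 1 was higher. Of the CTCF and MEF2 members 11 of 15 were lower, and all 15 ratios were negative. Of all 513 constructs with at least 3 barcodes 55.9% were lower and 13.5% higher, so these counts lie near or somewhat above the background. Centred on the constructs without a motif, 4 CTCF and FOXO members and 1 CTCF and MEF2 member were lower. With 1 replicate left out, 4 to 7 CTCF and MEF2 members were lower, 4 of them without replicate 1. The best measured member, FOXO-CTCF-FOXO in context 3 with 101 barcodes, had 362, 325 and 429 RPM of mRNA beside 3089, 2775 and 2874 RPM of genomic DNA. Its log2 ratio was -2.98 (SE 0.17, adjusted p = 0.000184). FOXO-CTCF-FOXO in context 2, with 89 barcodes, had 639, 644 and 1059 RPM of mRNA beside 3141, 3212 and 3268 RPM of genomic DNA, a log2 ratio of -2.08 (SE 0.25, adjusted p = 0.00146). In both every mRNA value lay below every genomic DNA value. The median log2 ratio over all 513 constructs was -1.45, and the constructs without a motif stood at 0.75 in context 2 and -3.77 in context 3. The member in context 3 thus lay above the construct without a motif of its context, and the member in context 2 below it. These differences within a context were not tested. Of the mRNA of all constructs without a motif 63.1% was held by 1 barcode. The 2-motif arrays had log2 ratios from -6.28 to -2.19 with FOXO and from -6.71 to -2.32 with MEF2. Of these 12, 5 were listed at or near 0 RPM in at least 1 mRNA replicate. Among them 1 barcode held 100% of the mRNA of CTCF-MEF2 in context 3 and 63.0% of that of MEF2-CTCF in context 1. The leading barcode held 60.3% for CTCF-FOXO in context 3, 58.8% for FOXO-CTCF in context 1 and 50.2% for CTCF-MEF2 in context 2. CTCF-MEF2 in context 1, on 12 barcodes, was the lowest member by its log2 ratio of -6.71, but was listed at 0 in 2 of 3 mRNA replicates with 91.0 RPM in the other, so this ratio follows the pseudocount. The lowest CTCF and FOXO member, FOXO-CTCF in context 2 at -6.28, was listed at 55.4, 32.2 and 0 RPM.

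The single CTCF and FOXO member above genomic DNA turned on 1 barcode. FOXO-CTCF-FOXO-FOXO in context 2 had 2196, 886 and 2011 RPM of mRNA beside 357, 345 and 369 RPM of genomic DNA (log2 ratio 2.14, SE 0.38, adjusted p = 0.00581). The barcode gggcacaaactt held 96.8% of that mRNA among 11 barcodes and 36.3% of the mRNA of the whole pair. Without the leading barcodes this member stood at -2.52 (adjusted p = 0.000519). Among CTCF and MEF2 members CTCF-MEF2-CTCF in context 2 was the most active of those that passed, with 754, 834 and 1040 RPM of mRNA beside 1444, 1288 and 1528 RPM of genomic DNA. The barcode ttgtcgcaaaat held 87.5% of that mRNA among 43 barcodes and 42.4% of the pair's, and the log2 ratio of -0.71 became -4.00 without it. MEF2-CTCF-MEF2-MEF2 in context 2 had the highest ratio of its pair, -0.31 (SE 0.95, adjusted p = 0.779), on 5 barcodes. Of its mRNA 86.9% was held by 1 barcode.

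In the integrated library few members departed from their homotypic arrays. From the weighted mean, 1 of 14 CTCF and FOXO members was above and 1 below, and 1 of 12 CTCF and MEF2 members was below, where 24.3% of all mixed constructs were above and 15.5% below. The member above was again FOXO-CTCF-FOXO-FOXO in context 2 (5.88, SE 1.12, adjusted p = 0.012), and those below were CTCF-FOXO-CTCF (-3.17, SE 0.20, adjusted p = 0.00046) and CTCF-MEF2-CTCF (-0.99, SE 0.27, adjusted p = 0.0377) in context 2. Both of the latter are set against 3 CTCF motifs in context 2, the only CTCF array with a positive mean log2 ratio in that library. Over both pairs and both homotypic references 12 of 55 differences passed, where 22.8% of all such differences were below and 25.7% above. Of the mirror pairs 1 of 8 differed, where 41.9% did, with CTCF-FOXO-CTCF below FOXO-CTCF-FOXO in context 2 by -1.13 (SE 0.29, adjusted p = 0.0295). No mirror pair passed with the replicate block or without the leading barcodes. Of the swaps of MEF2 for FOXO 1 of 15 was higher and 1 lower, where 14.4% differed in either direction.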

How the data were processed

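Barcode reads of MEC1 STARR-seq libraries were analysed. For each barcode the deposited episomal tables give raw counts, and the integrated table gives RPM values computed by the authors, per the file headers. No source used here names the aligner or the counter. The depth behind the RPM values is unknown. Barcodes without a construct name, which held 16.6% to 18.5% of reads, were left out, as were 9 per-sample columns not used here. Episomal barcodes needed at least 5 plasmid reads and constructs at least 5 barcodes, or 3 barcodes when integrated. Counts were summed per construct. In R 4.3.3, mRNA against plasmid DNA and the spacer contrast were tested in edgeR 4.0.16 by quasi-likelihood with TMM scaling, over all constructs present at both spacers. Departures, homotypic comparisons, mirror pairs, last-motif pairs and swaps were fitted with limma 3.58.1 to log2 values per replicate over all constructs of that kind, with a pseudocount of 0.5. The threshold was a Benjamini-Hochberg adjusted p of 0.05 over all constructs tested. With 1 plasmid library per spacer, its own error is in no test. The fits were tested on simulated data.

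All members were counted. Those named were, for each pair and library, the highest and lowest activities and, in the episomal libraries, the largest departures in each direction. Also named were 2-motif arrays, mirror pairs that passed, and members called against the direction of most. Others, including members that turn on 1 barcode, were chosen after their values were seen. Members and lists were chosen with earlier results of these data known, and the last-motif and swap comparisons were added after the data were seen. Alternatives covered DESeq2 1.42.0, scaling, read and barcode minimums, pseudocounts, a replicate block, each replicate left out, and the leading barcode of each construct left out. Replicate numbers were not used to pair samples in the main fits. Deviations of same-numbered 5 bp and 10 bp mRNA libraries correlated at 0.049, and those of integrated mRNA and genomic DNA at -0.018, 0.046 and -0.027. These correlations cannot show whether same-numbered samples came from the same cells.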

Additional observations from a re-analysis of the deposited data

Results flagged for a closer look

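The departure of MEF2-CTCF-MEF2-CTCF in context 2 from the weighted mean of its homotypic arrays passed in opposite directions at the 2 spacers, and the limma test of that difference gave 2.16 on the log2 scale, 10 bp minus 5 bp (adjusted p = 0.00017). It rests on 17 barcodes at 5 bp and 27 at 10 bp, and without the leading barcodes both departures were negative, at -1.07 and -0.55. In the edgeR contrast between spacers 9 CTCF and FOXO designs were lower at 10 bp. In the same contrast 8 CTCF and MEF2 designs were higher and 3 lower with all barcodes. No group held more than 3 samples, so single samples that stand apart were not looked for. The cause of these differences was not tested.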

How the results depend on the processing

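Without the leading barcode of each construct, all 14 and 13 CTCF and FOXO departures were still below the weighted mean, and of the CTCF and MEF2 departures 11 were below and 2 above at 5 bp and 8 below and 1 above at 10 bp. The same setting gave 2 mirror calls at 5 bp, 5 CTCF and FOXO members above CTCF arrays at 5 bp, and 1 CTCF and MEF2 design lower at 10 bp than at 5 bp. In the integrated library it gave 7 of 50 homotypic differences and 0 mirror calls. Scaled on constructs without a motif, 15 CTCF and FOXO designs were lower at 10 bp, and of the CTCF and MEF2 designs 2 were higher and 9 lower. The integrated counts of lower members were then 4 and 1, and 5 and 1 when centred on the median construct. For CTCF and MEF2 that count was 6 of 8 with at least 10 barcodes and 4 of 6 with at least 20. Last-motif calls at 5 bp were 3 of 4 with at least 20 barcodes and 3 of 5 with at least 20 plasmid reads. Integrated departure calls were 1 with homotypic arrays averaged over contexts and 6 against the linear weighted mean, and integrated mirror calls were 2 with a pseudocount of 5. The replicate block, which takes replicate numbers as a pairing, gave 6 integrated homotypic differences, 0 integrated mirror calls and 7 integrated CTCF and MEF2 members lower. In the contrast between spacers it gave 9 lower for CTCF and FOXO, and 7 higher and 3 lower for CTCF and MEF2.

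With 1 replicate left out, mirror calls at 5 bp ranged from 3 to 5, integrated departure calls from 2 to 6, integrated homotypic differences from 9 to 11 and integrated CTCF and MEF2 members lower from 4 to 7. The CTCF and FOXO members lower when integrated ranged from 10 to 13 and those lower at 10 bp from 7 to 10. For CTCF and MEF2 6 to 8 were higher at 10 bp and 3 to 4 lower. A library left with 1 mRNA sample was assumed to vary like the others. Among departures of named members, 342 of the values under other settings kept their direction and their side of the threshold, 4 gained and 3 lost a call, and 4 turned sign: CTCF-MEF2 in context 1 at 5 bp (from -0.0865 to 0.0433 with either 5 bp mRNA replicate left out, positive without replicate 1 and never past the threshold there), CTCF-FOXO-CTCF in context 2 at 5 bp (0.15 with at least 20 plasmid reads), MEF2-CTCF-MEF2 in context 3 at 10 bp (-0.31 against the linear weighted mean) and MEF2-CTCF-MEF2-CTCF in context 2 at 10 bp (-0.55 without its leading barcode). The causes were not tested.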
